A study of Mus musculus with 24 samples.

Results

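CD4+ T cells from Cat-Tg and wild-type (WT) donors were compared on day 7 after allogeneic transplantation. The comparison comprised 6 of the 24 RNA-seq libraries of the series, 3 labelled Cat-Tg CD4 post-transplant and 3 labelled WT CD4 post-transplant. Its members were set by those labels, and earlier results of these data were known when they were chosen. The other 18 libraries were CD8+ T cells and pre-transplant cells of the same 2 genotypes. Cat-Tg mice carried a human β-catenin transgene that lacks the N-terminal part of the protein, in the vector p1017, which drives T cell expression from the proximal Lck promoter, on a C57BL/6 background, and were heterozygous. Mice were 8 to 12 weeks old, and the transplanted marrow did not carry the transgene. Donor CD4+ and CD8+ T cells of either genotype were mixed 1:1 and given, with WT T cell-depleted bone marrow, to lethally irradiated BALB/c recipients, and donor-type (H-2Kb+) CD4+ T cells were sorted from the recipients' spleens. Thus both groups shared the recipient strain, the irradiation and the WT marrow. The CD8+ partner cells were of each group's own genotype, so the genotypes of the CD4+ and CD8+ donor cells cannot be told apart. CD4 and CD8 libraries came from the same recipients. All Cat-Tg labels carry 1 prefix and all WT labels another, and what the prefixes mark is not given. If they mark separate library series, the effect of genotype cannot be separated from that of series. According to the paper, its RNA-seq belonged to an experiment that other publications of the laboratory also used. The same WT data appear in those publications.

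β-catenin is the signal carrier of the canonical Wnt pathway. Without Wnt it is phosphorylated at its N-terminus and degraded, and a form without that region escapes degradation and acts with TCF/LEF factors, of which TCF-1 (Tcf7) and LEF-1 are the main members in T cells. After allogeneic transplantation, CD4+ T cells that recognise host antigens proliferate, differentiate into T helper (Th1, Th2, Th17), T follicular helper (Tfh) or regulatory (Treg) cells, and secrete cytokines and chemokines that recruit further leukocytes. Chemokines act through G protein-coupled receptors, and checkpoint receptors such as PD-1 (Pdcd1) and CTLA-4 restrain the response.

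The 6 libraries held between 11135713 and 50519825 estimated counts. The shallowest was Cat-Tg replicate 1, which also stood apart from the other 2 Cat-Tg libraries on the second principal component (109.6 against -37.1 and -45.6). On the first component, which held 51.1% of the variance, all Cat-Tg libraries lay below 0 and all WT libraries above. Cd4 was 754.7, 783.2 and 826.5 CPM (counts scaled to library size and normalized by the trimmed mean of M-values) in Cat-Tg and 1115, 976.3 and 1141 in WT, whereas Cd8a did not exceed 6.23 CPM in any of the 6 libraries, so the sorted lineage matched the labels. The 6 libraries labelled WT pre-transplant went against their labels, since those labelled CD4 held 89.2 ± 48.2 CPM of Cd4 and 130 ± 25.9 of Cd8a and those labelled CD8 held 93.8 ± 14.5 and 131 ± 39.6 (SD, n = 3), whereas the Cat-Tg CD4 pre-transplant libraries held 270 ± 74.2 and 6.29 ± 2.45. They entered the fits below through the estimate of the spread, the filter of genes and the normalization. Without them 15605 genes were tested. For the genes named by the rule given at the end, values without them are given where they change a call. Mouse Ctnnb1, which encodes β-catenin, was 92.0, 156.1 and 163 CPM in Cat-Tg and 166.4, 147.3 and 154.2 in WT, and the groups overlapped. Its log2 fold change was -0.19 (SE 0.288, adjusted p = 0.763) and turned to 0.03 without Cat-Tg replicate 1 and to 0.26 when libraries were scaled to T cell receptor genes. The human transgene was not analysed here, so Ctnnb1 is no check of the labels.

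Of 17237 genes tested, 1749 (10.1%) passed a false discovery rate (adjusted p) of 0.05, 636 (3.69%) higher and 1113 (6.46%) lower in Cat-Tg. With an additional log2 fold change of at least 2 in size, 1358 genes (7.88%) remained, 397 higher (2.3%) and 961 lower (5.58%). The split moved with the method. It was 296 higher and 254 lower among genes that held 10 or more counts in all 6 libraries, 471 higher and 456 lower with limma-voom, with 55.2% of calls higher when only the 6 libraries were fitted, 458 higher and 610 lower without the WT pre-transplant libraries, and 617 higher and 553 lower with scaling to T cell receptor genes. The median log2 fold change over all genes tested was -0.19, 0.02 without the WT pre-transplant libraries, and 0.25 with that scaling. Below, "higher" and "lower" denote genes that passed the adjusted p of 0.05.

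Transcripts of other cell types differed between the groups and were kept apart from the T cell lists. Of 19 erythroid genes tested, 18 were higher in Cat-Tg (94.7% called, against 10.1% of all genes). Their summed level was 27700, 11340 and 4638 CPM in Cat-Tg against 793.2, 1359 and 721.1 in WT. Of 26 myeloid genes 15 were higher (57.7% called), with sums of 10770, 12890 and 10380 CPM against 3440, 2636 and 3530. Both sums were higher in every Cat-Tg library than in any WT library. Among single genes, 8.82% showed such a separation in this direction. Of 16 B cell genes 5 were higher and 2 lower (43.8% called), and of 16 dendritic cell and MHC class II genes 7 were higher (43.8% called). Conversely, 21 of 23 liver genes were lower in Cat-Tg (95.7% of the list called in either direction). The fibrinogen chain Fga was between 12.01 and 47.7 CPM in WT and at most 0.0966 CPM in Cat-Tg, and only transferrin (Trf) was higher, at 1942, 2821 and 2461 CPM against 416.4, 664.2 and 465.3.

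**Figure D1:**
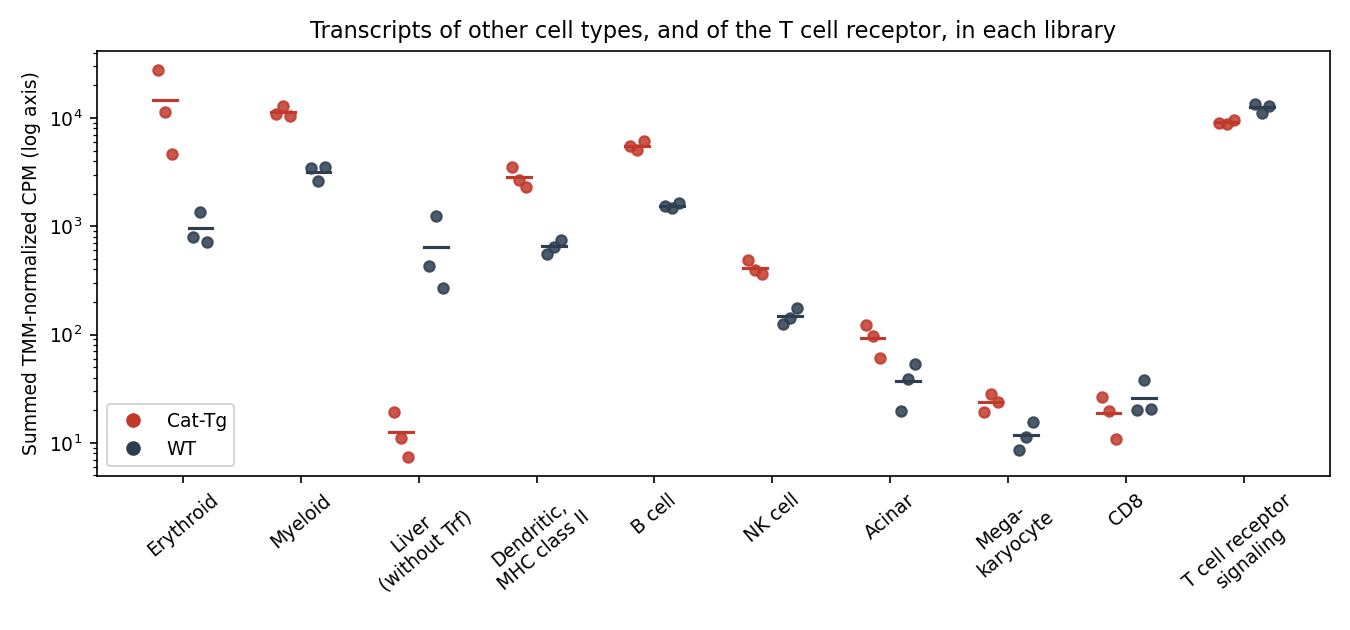
Summed TMM-normalized CPM (log axis) of each list of cell type transcripts in the 6 libraries, Cat-Tg red and WT dark blue, points being libraries and lines group means. Erythroid, myeloid, dendritic, B cell, NK cell, acinar and megakaryocyte sums are higher in every Cat-Tg library. The liver sum without Trf and the T cell receptor signaling sum are higher in every WT library.

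The 24 genes of T cell receptor signaling summed to 9068, 8892 and 9515 CPM in Cat-Tg and 13590, 11020 and 12940 in WT, without overlap. Of these genes 3 (12.5%, near the 10.1% of all genes) were lower, namely the ζ chain Cd247, the kinase Fyn and the α chain constant region Trac, and the list median was -0.45. These calls were lost in 13 (Cd247), 5 (Fyn) and 14 (Trac) of 17 alternatives, among them the fit without the WT pre-transplant libraries for Cd247 (adjusted p = 0.0967) and Trac (adjusted p = 0.174). A lower share of T cells and less T cell RNA per cell cannot be told apart in bulk libraries. The part of these shifts in the results that follow was not tested, and values scaled to the T cell receptor genes, an alternative chosen after the data were seen, are given for the genes below where they end a call.

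Chemokines that T cells secrete were lower in Cat-Tg. Of 5 tested, 4 were lower (80%, against 10.1% of all genes called), with a list median log2 fold change of -2.40. Ccl3, which attracts monocytes and T cells, was 12.8, 15.7 and 6.6 CPM in Cat-Tg and 129.6, 68.0 and 109.9 in WT. Every Cat-Tg library lay below every WT library, and the log2 fold change was -3.13 (SE 0.422, adjusted p = 0.000493). Ccl4, a related chemokine of the same kind, was 70.2, 49.4 and 29.2 CPM against 304.8, 190.5 and 289.3 (log2 fold change -2.40, SE 0.401, adjusted p = 0.00222). Xcl1, which attracts XCR1+ dendritic cells, was near 1 CPM or below in Cat-Tg (1.26, 0.309 and 1.14) and 22.4, 13.03 and 15.5 CPM in WT (log2 fold change -4.27, SE 0.813, adjusted p = 0.0043). Ccl1, the ligand of CCR8, was 89.1, 38.5 and 30.5 CPM against 373.4, 147.3 and 227.6 (log2 fold change -2.25, SE 0.551, adjusted p = 0.0171). The Ccl1 groups did not overlap either, but its call was lost with scaling to T cell receptor genes (-1.76, adjusted p = 0.068) and in 3 of the fits that left out 1 library. Ccl5, which attracts T cells and monocytes, was 270, 164.1 and 124.6 CPM against 405.8, 245.2 and 392.3. These groups overlapped, and its log2 fold change of -0.90 did not pass (SE 0.297, adjusted p = 0.0655).

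Because these chemokine genes were lower together, the 150 bases before the annotated start are shown for the 3 of them that matched the RefSeq promoter table (GRCm38.p6), with capitals marking GGAAAA on either strand, a core read by NFAT, the calcium-responsive factor of T cell activation.
Ccl3, chr11:83649379-83649528, minus strand: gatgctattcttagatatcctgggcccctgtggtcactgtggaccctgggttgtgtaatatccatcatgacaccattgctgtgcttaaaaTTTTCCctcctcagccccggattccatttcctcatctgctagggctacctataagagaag
Ccl1, chr11:82179813-82179962, minus strand: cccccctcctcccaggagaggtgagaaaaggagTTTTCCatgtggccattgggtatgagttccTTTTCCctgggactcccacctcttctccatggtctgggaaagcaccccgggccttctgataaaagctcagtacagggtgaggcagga
Xcl1, chr1:164935523-164935672, minus strand: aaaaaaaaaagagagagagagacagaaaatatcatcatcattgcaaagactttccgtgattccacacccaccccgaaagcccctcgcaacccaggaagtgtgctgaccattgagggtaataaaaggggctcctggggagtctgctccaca

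GGAAAA occurred 1 time in Ccl3, 2 times in Ccl1 and not in Xcl1, and in 11.8% of 32851 windows of the same length. The TCF/LEF letters CTTTGAA or CTTTGAT (both strands, 4.13% of windows), the AP-1 letters TGANTCA (both strands, 4.24%) and the TATA letters TATAAA (gene strand, 4.84%) were in none of the 3 windows. Another 3 searches were chosen after these windows had been read. The shorter core GGAAA, which GGAAAA contains, was in all 3 windows and in 37.6% of all windows, ATAAAAG (gene strand, 2.01%) was in Ccl1 and Xcl1, and the CRE letters TGACGTCA (both strands, 1.36%) were in none. These matches describe the letters only.

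Of 21 chemokines mostly made by other cells, 3 were higher and 1 was lower (19% called, against 10.1% of all genes). Ccl24, an eotaxin of macrophages, was 421.7, 688.7 and 696.1 CPM in Cat-Tg and 76.8, 96.9 and 166.6 in WT (log2 fold change 2.41, adjusted p = 0.00197), and Ccl6 and the platelet chemokine Pf4 were higher by 1.96 and 4.06 on the log2 scale. They moved with the myeloid sum given above, and the part of those cells in them was not tested. Cxcl15 was lower at levels of at most 0.127 CPM in Cat-Tg and at most 1.95 CPM in WT, a call lost with scaling to T cell receptor genes (adjusted p = 0.0556).

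Of 21 chemokine receptors tested, 2 were higher and 1, Cxcr5, was lower (14.3% called, near the 10.1% of all genes). CXCR5 guides Tfh cells into B cell follicles. Cxcr5 was 14.0, 10.5 and 11.3 CPM in Cat-Tg and 73.1, 56.2 and 44.0 in WT. The 3 Cat-Tg libraries lay close together and below every WT library, and the log2 fold change was -2.28 (SE 0.251, adjusted p = 0.000144). Its call held in all 17 alternatives, between -2.44 and -1.83. Ccr7, the lymph node homing receptor, was higher at 55.7, 60.5 and 70.1 CPM against 41.4, 33.1 and 37.3 (log2 fold change 0.74, adjusted p = 0.0416), a call lost in 9 of 17 alternatives. Ccr3, an eotaxin receptor of eosinophils, was 35.2, 171.5 and 144.4 CPM against 11.5, 26.3 and 32.5 (log2 fold change 2.32, adjusted p = 0.0176), a call lost in 5 of 17 alternatives. It moved with the myeloid sum, and the part of those cells in it was not tested.

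Tfh genes were lower in Cat-Tg more broadly. Of 19 tested, 9 were lower and 1 higher (52.6% called, against 10.1% of all genes), and the median log2 fold change was -1.31. In 13 every Cat-Tg library lay below every WT library, where 19.6% of all genes did so. Besides Cxcr5, the genes called lower were Pdcd1, Sh2d1a, Tox2, Tox, Btla, Slamf6, Tcf7 and Cd200. Tox2, a transcription factor of the Tfh programme, was 7.34, 7.04 and 5.5 CPM in Cat-Tg and 32.8, 62.9 and 62.5 in WT (log2 fold change -2.99, SE 0.502, adjusted p = 0.00227). Cd200, an inhibitory ligand on Tfh and activated T cells, was 12.5, 18.1 and 15.7 CPM against 56.8, 62.5 and 49.2 (log2 fold change -1.86, SE 0.266, adjusted p = 0.000802). Both separated the groups completely. Sh2d1a, the adaptor SAP that Tfh cells need for contact with B cells, was 31.5, 44.3 and 43.3 CPM against 91.5, 82.5 and 94.4 (log2 fold change -1.17, adjusted p = 0.0131). Bcl6, the defining repressor of Tfh cells, was 10.3, 3.38 and 7.87 CPM against 26.5, 13.9 and 12.7, and its log2 fold change of -1.31 did not pass (SE 0.492, adjusted p = 0.106). Il21, the Tfh cytokine, was 1.55, 11.7 and 3.17 CPM against 18.9, 24.2 and 26.3 (log2 fold change -2.06, SE 0.91, adjusted p = 0.173). Icos gave -1.44 (adjusted p = 0.0592). The groups did not overlap for any of these 3 genes. Il6ra, the IL-6 receptor chain, was the 1 higher gene (log2 fold change 0.99, adjusted p = 0.042). With scaling to T cell receptor genes, 3 genes of the list stayed lower, namely Cxcr5, Tox2 and Cd200 (adjusted p = 0.000359, 0.0108 and 0.00631). Sh2d1a, Tox, Btla and Slamf6 no longer passed, nor did Pdcd1 (-0.67, adjusted p = 0.0601) and Tcf7 (-0.72, adjusted p = 0.0547).

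**Figure D2:**
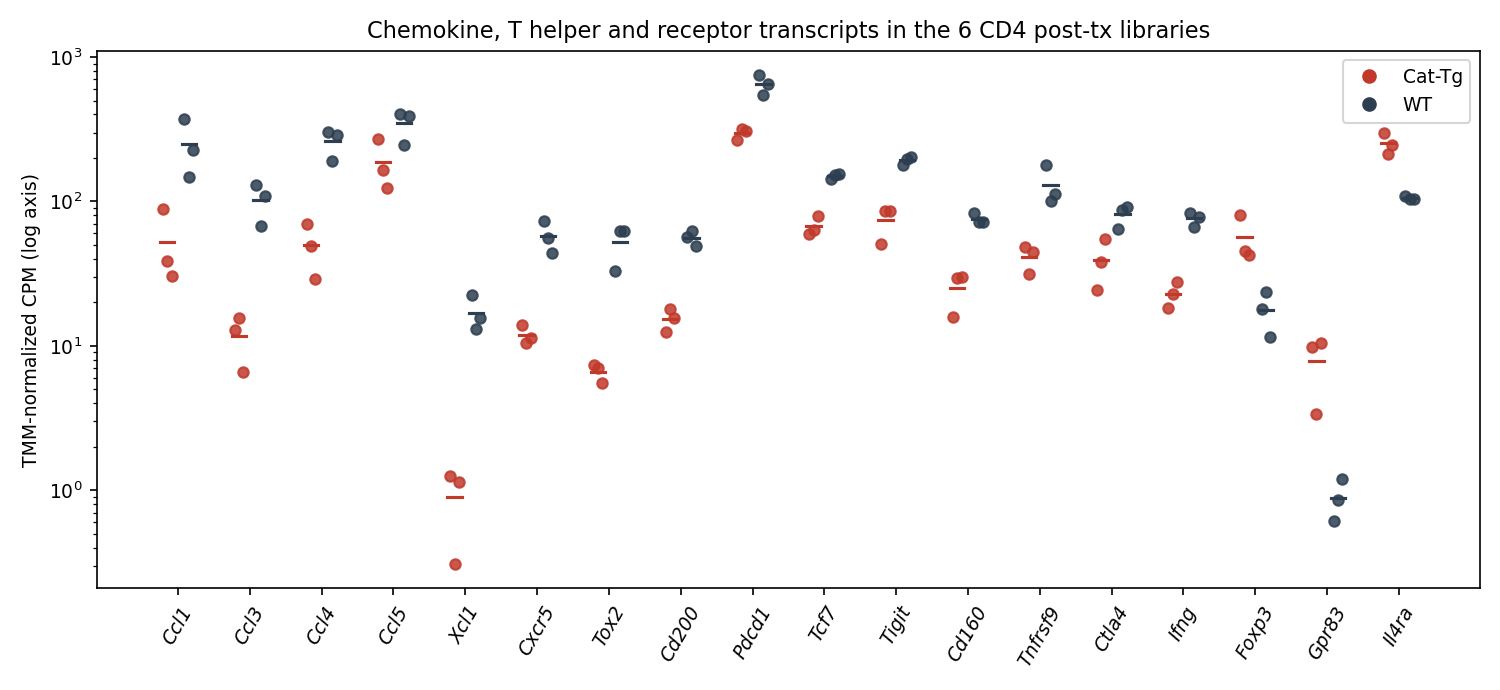
TMM-normalized CPM (log axis) of chemokine, T helper and receptor genes in the 6 libraries, Cat-Tg red and WT dark blue, points being libraries and lines group means. The 3 Cat-Tg points lie below the 3 WT points for Ccl1, Ccl3, Ccl4, Xcl1, Cxcr5 and the Tfh and checkpoint genes, overlap for Ccl5, and lie above them for Foxp3, Gpr83 and Il4ra.

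Treg genes moved in both directions. Of 20 tested, 2 were higher and 2 lower (20% called, against 10.1% of all genes), with a median of 0.01. Foxp3, the defining transcription factor of Treg cells, was 80.5, 45.7 and 42.8 CPM in Cat-Tg and 17.9, 23.5 and 11.4 in WT. Every Cat-Tg library lay above every WT library, the highest being replicate 1, and the log2 fold change was 1.68 (SE 0.364, adjusted p = 0.00866). Gpr83, a receptor found on Treg cells, was 9.75, 3.38 and 10.4 CPM against 0.615, 0.858 and 1.19 (log2 fold change 3.13, SE 0.579, adjusted p = 0.004). In contrast Tigit and Tnfrsf4 (OX40), which Treg and other activated T cells share, had log2 fold changes of -1.38 and -1.15 and were called lower. Neither call held with scaling to T cell receptor genes (-0.95, adjusted p = 0.0777, and -0.69, adjusted p = 0.0793), and that of Tnfrsf4 was lost in 3 of the fits that left out 1 library. Ctla4 was 24.4, 38.2 and 55.4 CPM in Cat-Tg and 64.9, 87.8 and 91 in WT. The Ctla4 groups did not overlap, but its log2 fold change of -1.04 did not pass (SE 0.347, adjusted p = 0.068). It passed in 2 of 17 alternatives.

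The transcription factors Tbx21 and Gata3 of the other helper subsets did not pass in the main fit. Tbx21 (T-bet, Th1) was 334.2, 304.7 and 297.5 CPM in Cat-Tg and 386.4, 283.8 and 339.2 in WT, and its log2 fold change of -0.11 (SE 0.204) turned to 0.03 with DESeq2, to 0.06 without the WT pre-transplant libraries and to 0.35 with scaling to T cell receptor genes. Gata3 (Th2) was 916.8 CPM in Cat-Tg replicate 1 and 337.8 and 371.6 in the others, against 348.6, 308.2 and 335.2 in WT (log2 fold change 0.71, adjusted p = 0.172). Thus the highest Gata3 level was that of 1 library, Cat-Tg replicate 1. Gata3 passed in 1 of 17 alternatives, scaling to T cell receptor genes (1.16, adjusted p = 0.0271). In the fit of all 24 libraries used below, Gata3 was higher in CD8 (2.30, adjusted p = 0.000922) and did not pass in CD4 (0.75, adjusted p = 0.245). Of 18 Th1 genes tested, 1 was higher (Hlx) and 1 lower (Ifng), a share of 11.1% against 10.1% of all genes. The Hlx call was lost in 10 of 17 alternatives, among them every fit that left out 1 library. Of 13 Th2 genes, Il4ra and Pparg were higher (15.4%), and the Pparg call was lost in 5 of the fits that left out 1 library. Il4ra, the shared chain of the IL-4 and IL-13 receptors, was 297.7, 211.9 and 247.5 CPM against 108.2, 104.2 and 104.6, without overlap (log2 fold change 1.26, SE 0.228, adjusted p = 0.00363). Both Il4ra and Pparg were higher where the myeloid sum was higher, and the part of those cells in them was not tested. Of 12 Th17 genes, Il17f was lower (8.33%), at levels of at most 2.8 CPM. This call was lost in 9 of 15 alternatives, scaling to T cell receptor genes among them (adjusted p = 0.0591).

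Of 26 T cell cytokines tested, 3 were lower and none higher at an adjusted p of 0.05 (11.5%, near the 10.1% of all genes), with a median of -0.60. In 12 every Cat-Tg library lay below every WT library, where 19.6% of all genes did so. Ifng, which activates macrophages, was 18.4, 22.9 and 27.8 CPM in Cat-Tg and 83.6, 66.8 and 78.5 in WT (log2 fold change -1.73, SE 0.392, adjusted p = 0.0112). Its groups were far apart, and the call held in all 17 alternatives, with an adjusted p of 0.0492 when scaled to T cell receptor genes. It did not pass in the fit of all 24 libraries used below for the CD8 comparison (-1.70, adjusted p = 0.138). Il2, the T cell growth factor, was 0.58, 1.41 and 0.973 CPM against 8.89, 4.59 and 2.7 (log2 fold change -2.42, adjusted p = 0.0664), and Csf2, which encodes GM-CSF, was 15.2, 16.6 and 17.3 CPM against 89.4, 28.5 and 49.4 (log2 fold change -1.77, adjusted p = 0.107). Neither passed, although their groups did not overlap. Tnf, Il4 and Il10 gave log2 fold changes of -0.55, -0.53 and -0.91 with adjusted p of 0.534, 0.627 and 0.549. Il5, Il13 and Il17a did not reach 1 CPM in any of the 6 libraries and were not tested. Of 16 innate cytokines, Il1b, Il18 and Tnfsf13 were higher (18.8%), and of 39 cytokine receptors 9 were higher and 2 lower (28.2%). Over all genes 10.1% were called. Csf1r, the macrophage growth factor receptor, was 1319, 1714 and 1401 CPM against 137.4, 158.6 and 239.5 (log2 fold change 3.05, adjusted p = 0.000385), and Csf2ra and Csf2rb rose with it. These are genes of myeloid cells, whose sum was also higher, and the part of those cells in them was not tested.

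Genes of checkpoint and costimulation were lower in Cat-Tg. Of 20 tested, 9 were lower and 1 higher (50% called, against 10.1% of all genes), with a median of -1.04. Pdcd1 (PD-1) was 268, 314.9 and 309.8 CPM in Cat-Tg and 748.6, 549.7 and 655.6 in WT (log2 fold change -1.13, SE 0.208, adjusted p = 0.004). Tnfrsf9 (4-1BB), a costimulatory receptor induced on activation, was 48.2, 31.3 and 44.9 CPM against 178.6, 100.4 and 112.4 (log2 fold change -1.66, SE 0.316, adjusted p = 0.00437). Neither overlapped. Cd160 and Tigit, both inhibitory receptors, had log2 fold changes of -1.59 and -1.38. The others were Lag3, Btla, Cd27, Tnfrsf4 and Tox, of which Tox is a transcription factor. Pdcd1, Btla and Tox are also counted in the Tfh list above, and Tigit and Tnfrsf4 in the Treg list. Cd244a was higher (log2 fold change 2.01, adjusted p = 0.0112). It moved with the myeloid sum, and the part of those cells in it was not tested. With scaling to T cell receptor genes 2 of the list stayed lower, namely Tnfrsf9 and Cd160 (adjusted p = 0.0178 and 0.0331). The other genes called lower in this list no longer passed.

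Of 28 activation-induced genes 4 were lower (14.3%, against 10.1% of all genes called), namely Nr4a2, Cd69, and Cd200 and Tnfrsf9, which are also counted above. In 14 every Cat-Tg library lay below every WT library, where 19.6% of all genes did so. The Nr4a2 call was lost in 7 of 16 alternatives, scaling to T cell receptor genes among them (adjusted p = 0.0728). Cd69, the early activation marker that also retains T cells in tissue, was 33.8, 67.6 and 68.3 CPM in Cat-Tg and 97.6, 144.6 and 184.2 in WT (log2 fold change -1.33, adjusted p = 0.0307, and 0.117 when scaled to T cell receptor genes). Of 13 cytotoxic genes Gzmk, Prf1 and Cst7 were lower (23.1%, against 10.1% of all genes called). With scaling to T cell receptor genes Gzmk (adjusted p = 0.0677) and Cst7 (adjusted p = 0.0948) no longer passed. Prf1, which encodes the pore-forming perforin, was 51.3, 90.9 and 57.9 CPM against 157.2, 127.2 and 147.7 (log2 fold change -1.11, adjusted p = 0.012, and 0.114 when scaled to T cell receptor genes).

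**Figure D3:**
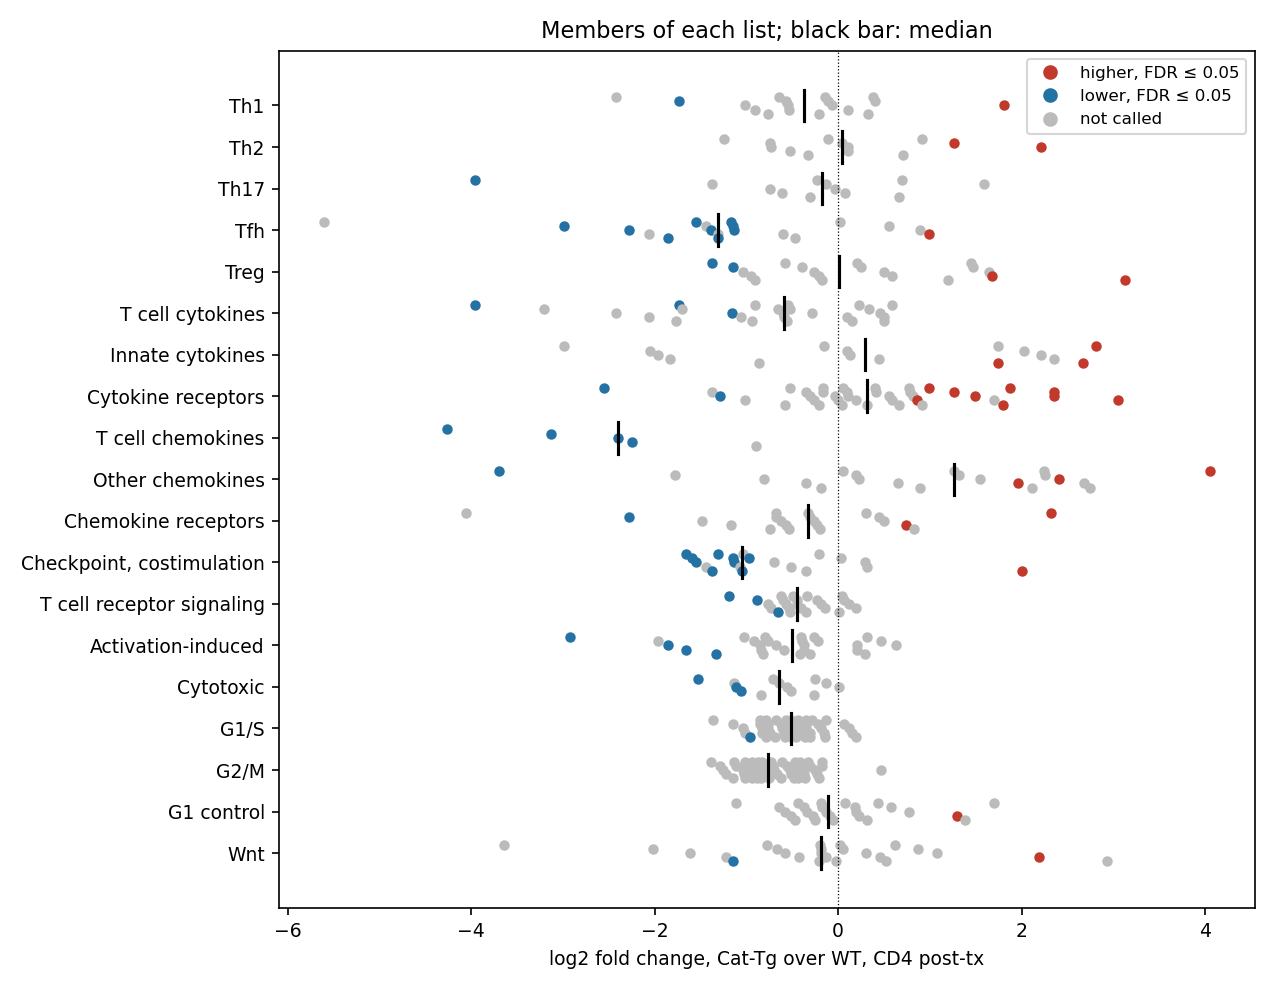
Log2 fold change (Cat-Tg over WT, CD4 post-transplant) of every tested member of each list, with members higher (red) or lower (blue) at an adjusted p of 0.05, the rest grey, and the median as a black bar. T cell chemokines, Tfh and checkpoint genes lie furthest below 0, with medians of -2.40, -1.31 and -1.04.

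Among cell cycle genes almost no single gene passed, while most log2 fold changes lay below 0. Of 50 G1/S genes, which act in DNA replication, 1 (Tyms, thymidylate synthase) was lower (2%, against 10.1% of all genes called). A log2 fold change below 0 was found in 46, with a median of -0.51, against -0.19 over all genes tested. The Tyms call was lost in 14 of 17 alternatives, every fit that left out 1 library and scaling to T cell receptor genes (adjusted p = 0.274) among them. It was also lost without the WT pre-transplant libraries (adjusted p = 0.0542). Of 58 G2/M genes, which act in mitosis, none passed with edgeR at an adjusted p of 0.05 (0%, against 10.1% of all genes called). However, 57 had a log2 fold change below 0, and the median was -0.76, against -0.19 over all genes tested. In 36 every Cat-Tg library lay below every WT library, where 19.6% of all genes did so. The G2/M genes summed to 3745, 4770 and 4532 CPM in Cat-Tg and 7338, 6084 and 6116 in WT. The lowest sum was that of Cat-Tg replicate 1, and the groups did not overlap. Mki67, the proliferation antigen Ki-67, was 57.2, 149.5 and 111.4 CPM against 271.8, 206.6 and 216.7 (log2 fold change -1.13, SE 0.354, adjusted p = 0.0544). Cdk1, the mitotic kinase, was 32.3, 64.2 and 52.9 CPM against 115.1, 108.5 and 109.4 (log2 fold change -1.15, SE 0.368, adjusted p = 0.0572). With scaling to T cell receptor genes these became -0.67 and -0.71, where the median over all genes tested was 0.25. Of 26 regulators of G1, only Cdkn1a passed in the main fit (3.85%, against 10.1% of all genes called). Cdkn1a, which encodes the cell cycle inhibitor p21, was 271.4, 112.8 and 103.6 CPM in Cat-Tg and 76, 57.3 and 64.2 in WT, and its log2 fold change of 1.30 (SE 0.368, adjusted p = 0.0346) lost its call in 4 of the fits that left out 1 library. Ccnd2 (cyclin D2) gave 0.77 (adjusted p = 0.0545) and Ccnd1 (cyclin D1) 1.70 (adjusted p = 0.0643). Without the WT pre-transplant libraries both passed, at 0.94 (adjusted p = 0.0299) and 1.90 (adjusted p = 0.0481). Ccnd2 passed in 8 and Ccnd1 in 4 of 17 alternatives.

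**Figure D4:**
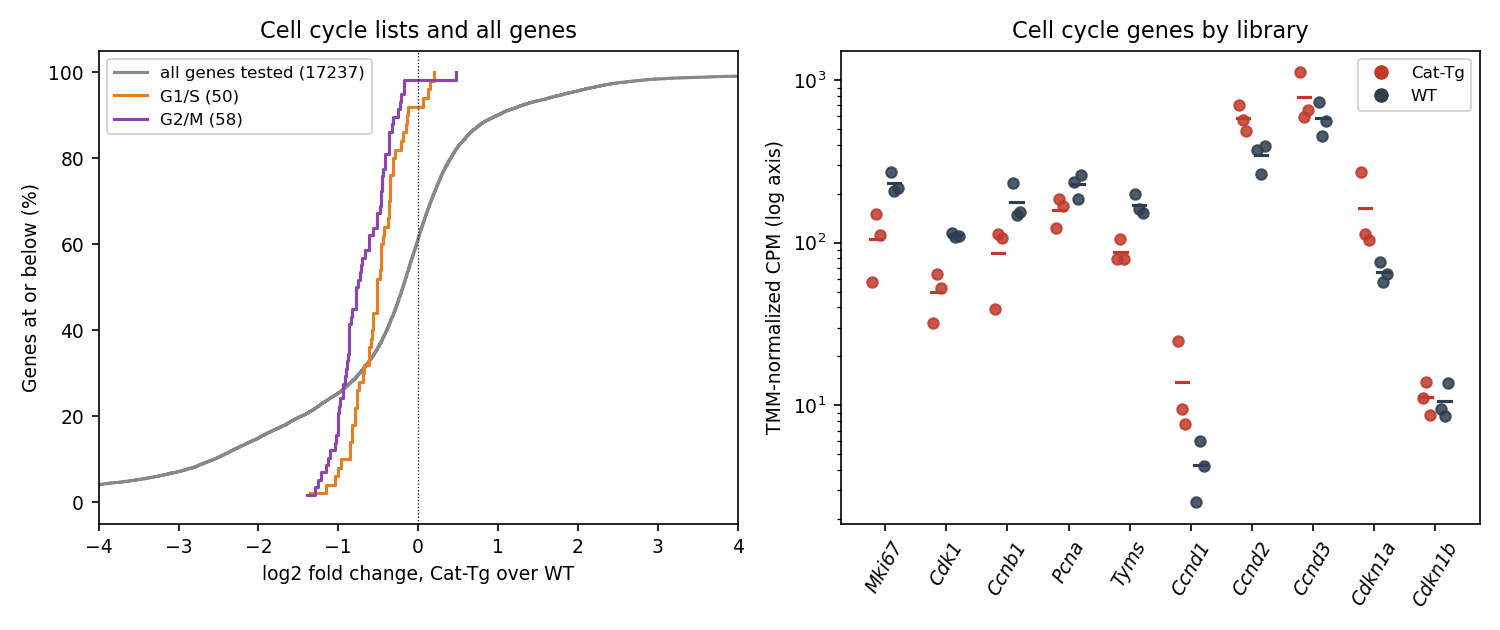
Left, cumulative share of genes (%) against log2 fold change for all 17237 genes tested, 50 G1/S and 58 G2/M genes; right, TMM-normalized CPM (log axis) of cell cycle genes per library, Cat-Tg red and WT dark blue, lines being group means. The G2/M curve lies left of 0 for 57 of 58 genes, and Cdkn1a is the gene on the right with all Cat-Tg points above WT that passed the test.

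Of 25 Wnt pathway genes, 1 was higher and 1 lower, a share of 8% against 10.1% of all genes. Tcf7, which encodes TCF-1, a marker of naive and memory-like T cells, was 59.6, 63.2 and 79.9 CPM in Cat-Tg and 142.3, 152.1 and 155.9 in WT (log2 fold change -1.15, SE 0.223, adjusted p = 0.00466). Tcf7l2, another TCF factor, was 46.0, 45.4 and 39.6 CPM against 5.24, 11.9 and 11.6 (log2 fold change 2.19, SE 0.427, adjusted p = 0.00494). In both genes the groups were well separated, in opposite directions. Tcf7l2 moved with the myeloid sum, and the part of those cells in it was not tested.

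The largest changes among protein-coding genes that reached 10 CPM and were in no list of other cell types are given next. Among the lowest in Cat-Tg were F2, Hpd, Mat1a, Vtn and Uox, all transcripts of hepatocytes, and none of these 5 exceeded 0.386 CPM in a Cat-Tg library. The highest were Kel, Aqp1, Camkk1, Gfi1b, Tmcc2 and Apol11b, of which Kel (a blood group antigen), Aqp1 (a water channel) and Gfi1b (a transcription factor) are known from red cells and their precursors. Kel was 8.89, 20.3 and 7.62 CPM in Cat-Tg and at most 0.132 CPM in WT.

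The Cat-Tg CD4 libraries were also sequenced before transplantation, in separate mice. The values are given as mean CPM ± SD (n = 3) with all 24 libraries normalized together, and their difference was not tested. Ccl3 was 0.262 ± 0.124 before and 11.1 ± 4.39 after, Ccl4 was 2.52 ± 0.66 and 47.3 ± 20.3, and Ccl1 was 1.08 ± 0.994 and 50.4 ± 31.4. Thus all 3 were higher in the post-transplant Cat-Tg libraries, in which they still lay below WT. Xcl1 went from 7.35 ± 3.23 to 0.861 ± 0.501, Cxcr5 from 59.5 ± 5.75 to 11.3 ± 1.98 and Tcf7 from 279 ± 24.1 to 64.1 ± 9.79. Pdcd1 was 88.2 ± 14.8 before and 282 ± 19.4 after, and Tcf7l2 was 7.83 ± 1.54 and 41.5 ± 3.71. The ranges for Foxp3 overlapped, at 75.2 ± 4.07 and 53.7 ± 21.1. No genotype comparison was made before transplantation, because of the WT libraries described above.

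The same genotypes were also sorted as CD8+ T cells on day 7, and the 2 genotype differences were compared in 1 fit of all 24 libraries. The T cell chemokines differed in CD8+ T cells as well. In that fit the log2 fold changes were -3.11 in CD4 and -2.77 in CD8 for Ccl3, -2.37 and -2.28 for Ccl4, -2.22 and -2.75 for Ccl1, and -4.24 and -3.93 for Xcl1, each passing in CD8. In CD4 Ccl3 (adjusted p = 0.00784) and Xcl1 (adjusted p = 0.008) passed in this fit, and Ccl4 (adjusted p = 0.0541) and Ccl1 (adjusted p = 0.0877) did not. Nor did Ifng (0.138), Foxp3 (0.265), Il4ra (0.0933), Tox2 (0.0611) or Tcf7 (0.0789) pass in CD4 there. Cxcr5 (0.00467), Cd200 (0.0125), Gpr83 (0.0174), Tnfrsf9 (0.0315) and Pdcd1 (0.0491) passed in CD4. For Ccl3, Ccl4, Ccl1 and Xcl1 no difference between the cell types passed. The largest was 0.54 (Ccl1, adjusted p = 0.893), which does not show that the cell types were equal. Cxcr5 was lower in CD4 (-2.25) and not in CD8 (0.55, adjusted p = 0.377), and the difference of -2.80 passed (SE 0.542, adjusted p = 0.0175). However, Cxcr5 was low in the CD8 libraries of both genotypes, at 7.56, 4.34 and 2.7 CPM in Cat-Tg and 4.245, 1.61 and 4.07 in WT. A fall in CD8 therefore had little room to show. Tcf7l2 was higher in CD4 (2.23) and gave -1.26 in CD8 (adjusted p = 0.145), a difference of 3.49 (SE 0.741, adjusted p = 0.0333). Its CD8 levels were also low, at 1.44, 0.663 and 0.814 CPM in Cat-Tg and 2.28, 2.995 and 1.73 in WT. For Tcf7 the difference of -1.92 did not pass (adjusted p = 0.0734). Of 19086 genes tested, 69 (0.362%) differed between the cell types, among them Cd79a, H2-Ab1 and Ciita of the B cell and MHC class II lists. The number fell to 45 without the WT pre-transplant libraries, where Cxcr5 passed (adjusted p = 0.0494) and Tcf7l2 did not (adjusted p = 0.0531). It fell to 3 with a replicate block and to 7 when CD4 and CD8 libraries of the same number were taken as 1 recipient, and neither Cxcr5 (adjusted p = 0.117) nor Tcf7l2 (adjusted p = 0.144) passed there. The sources do not say that equal numbers mark 1 recipient.

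**Figure D5:**
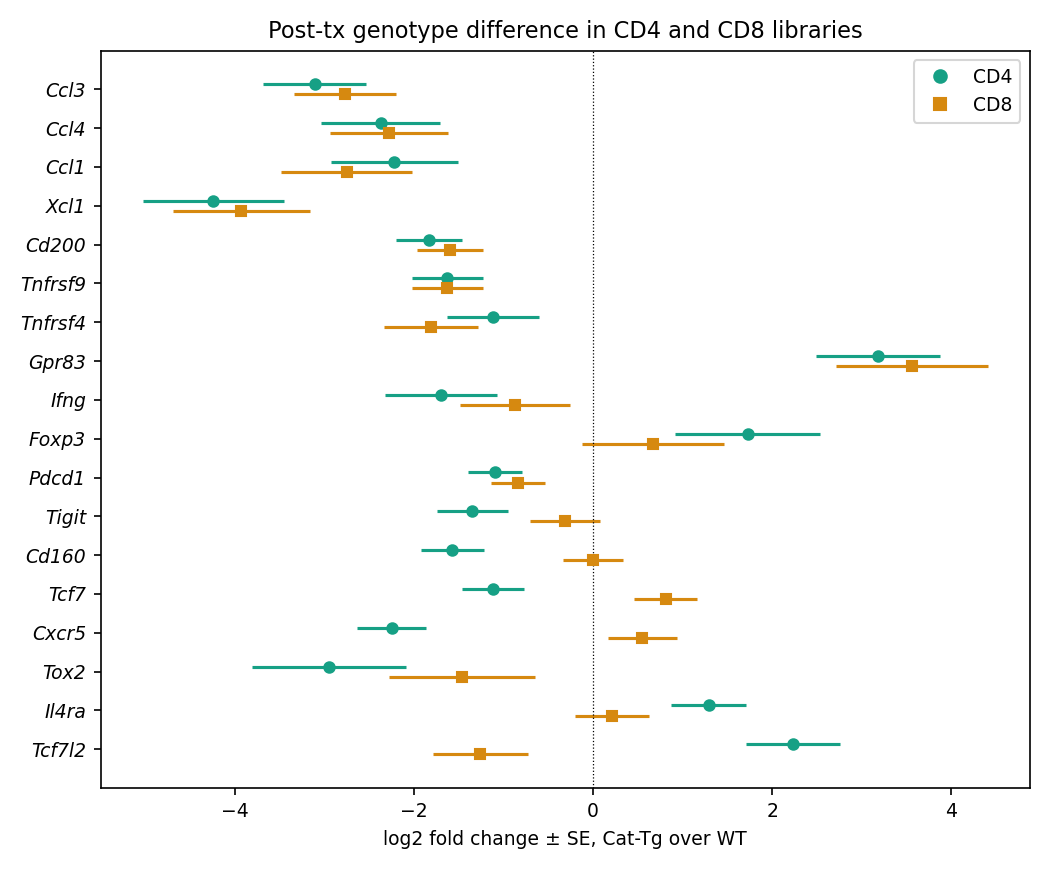
Log2 fold change ± SE (Cat-Tg over WT, day 7) of 18 genes in CD4 (circles) and CD8 (squares) libraries, from the fit of all 24 libraries. Ccl3, Ccl4, Ccl1 and Xcl1 lie below 0 in both cell types, and Cxcr5 and Tcf7l2 lie on opposite sides of 0.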

How the data were processed

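Total RNA of sorted splenic T cells was amplified with SMART-Seq HT and sequenced after Nextera XT preparation. The authors quantified transcripts with kallisto 0.46.2, and the deposited files hold estimated counts, TPM and transcript lengths per library (unit other for length). The submitters' processing notes name mm9, and the release of the transcript index is not given in the sources used here. Deposited estimated counts were summed to genes with GENCODE M21 (99.57 to 99.75% of counts matched) and rounded, and the deposited TPM values entered only a length-scaled alternative. Genes above 1 CPM in at least 3 of the 12 CD4 libraries were tested with edgeR 4.0.16 (TMM, robust quasi-likelihood test, two-sided, Benjamini-Hochberg adjustment) on all 12 CD4 libraries. The authors used voom and limma on TPM. The CD4 against CD8 difference was an interaction term over 24 libraries. Each group had 3 recipients, for which no exact test of 1 value could fall below p = 0.1.

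The members and gene lists were chosen with earlier results of these data known. Named genes were the given markers with Ctnnb1, Cd4 and Cd8a, a fixed set of subset, cytokine and cell cycle genes, up to 4 genes called per list by smallest adjusted p, and the 6 highest and 6 lowest protein-coding genes outside the other-cell lists. Some genes that the rule names are not reported here. Other list members named in the text were chosen after their values were seen. The promoter letters of 3 searches were chosen after the sequences had been read. The scripts were tested on simulated data. Alternatives added after seeing the data were the scaling to T cell receptor genes, the fits without the WT pre-transplant libraries and the block by recipient. Other alternatives were limma-voom 3.58.1, DESeq2 1.42.0, other filters, size factors and samples, and each replicate left out.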

Additional observations from a re-analysis of the deposited data

Results flagged for a closer look

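For 2 of the named genes the genotype difference after transplantation differed between CD4+ and CD8+ T cells by the test of the difference itself. Cxcr5 gave a difference of -2.80 (log2, CD4 minus CD8), which no longer passed with limma-voom (adjusted p = 0.0688) and passed in each fit that left out 1 replicate (adjusted p between 0.0268 and 0.0483). Tcf7l2 gave 3.49, which did not pass with limma-voom (adjusted p = 0.0707) or in any fit that left out 1 replicate (adjusted p between 0.0598 and 0.117). With a replicate block the adjusted p was 0.0727 for Cxcr5 and 0.153 for Tcf7l2, and with same-numbered CD4 and CD8 libraries as 1 recipient 0.117 and 0.144, so neither difference held under either. Both genes were at low levels in the CD8 libraries of both genotypes, as given above. Groups of 3 libraries are too small for a check of single outlying samples.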

How the results depend on the processing

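The count of 1358 genes fell to 550 where 10 or more counts were required in all 6 libraries and to 710 with only the 6 libraries, and the lower genes (961) to 254 and 318 there, to 456 with limma-voom, to 555 with the replicate block, to 610 without the WT pre-transplant libraries and to 553 with scaling to T cell receptor genes, where the higher genes (397) became 617. With a log2 fold change of at least 1 the higher genes were 623. Leaving out 1 replicate gave 578 to 1613 genes, 273 to 1215 lower and 297 to 398 higher. The count fell most without WT replicate 2 (578), Cat-Tg replicate 3 (632) and Cat-Tg replicate 2 (717). The 69 genes that differed between CD4 and CD8 became 111 with DESeq2 size factors, 45 without the WT pre-transplant libraries, and 42 to 94 with 1 replicate left out. Same-numbered libraries deviated together with r = 0.166, 0.008 and 0.148, so the replicate numbers were not taken to pair the samples. A replicate block left 3 genes with a CD4 against CD8 difference, a block by recipient 7, and that block without the WT pre-transplant libraries 0 with edgeR (1724 at an unadjusted p under 0.05, no other tool run). Same-numbered CD4 and CD8 libraries deviated with r between -0.137 and 0.148. Both fits by recipient were chosen after seeing the data. Among 78 named genes the replicate block ended 7 calls and added 2, namely Ctla4 (adjusted p = 0.0268) and Ccl5 (adjusted p = 0.0488). Of the 56 named genes called, 31 kept their call in every alternative run and none changed sign. The fit of all 24 libraries was not among these alternatives, and Ifng, Foxp3, Il4ra and Tox2 were among the genes that did not pass in it. Signs turned for genes that were not called, namely Ctnnb1 (-0.33 to 0.03 with 1 replicate left out, 0.03 being without Cat-Tg replicate 1, and 0.26 scaled to T cell receptor genes), Tbx21 (0.03 with DESeq2, 0.03 with its size factors, 0.06 without the WT pre-transplant libraries, 0.35 scaled) and Cdkn1b (-0.1 to 0.31, -0.1 without Cat-Tg replicate 2 and -0.05 without WT replicate 2). Apart from the fewer genes or samples that a filter or omission leaves, the cause was not tested. Cat-Tg replicate 1 was the shallowest library, which limits low genes most there.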
